A study of Mus musculus with 11 samples.

Results

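The genes described here are 10 genes typical of fat cells, Adipoq, Lep, Plin1, Plin4, Cidec, Lipe, Cfd, Retn, Pparg and Fabp4, which were chosen by name and found by symbol among 54232 listed genes, each with 1 row. They were read in bulk RNA sequencing of 11 pancreatic tumours, 6 grown in KO hosts and 5 in WT hosts. All hosts were adult female C57BL/6 mice heterozygous for Rosa26CreERT2, a Cre recombinase that tamoxifen activates in every host cell type, and both groups received tamoxifen before implantation. KO hosts were Pkn2 fl/fl, so that the gene for protein kinase N2 was deleted after tamoxifen, and WT hosts were Pkn2 +/+. Every host received 1000 TB32048 cells, a carcinoma line from a female KPC mouse with intact Pkn2, in the pancreas, and each tumour came from another animal. The carcinoma cells thus carried Pkn2 in both groups, and Cre from the Rosa26 locus does not restrict the deletion to one stromal cell type. The labels name the tissue as tumour and do not mention fat, so the peripancreatic origin of any adipocyte RNA is not given by them. The p-values below measure the spread between these tumours. Levels are in CPM, the count relative to a library size that was scaled by the trimmed mean of M-values (TMM).

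Fat cells store triglyceride in a large droplet that is coated by perilipins, enlarged by CIDE proteins and broken down by lipases. They also release hormones, called adipokines, into the blood. PPARγ and C/EBP factors switch on most of these genes when a fat cell matures. White fat surrounds the normal mouse pancreas and lies between its lobes.

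Adipoq, Lep and Cfd encode secreted products of fat cells, and the bases before their start sites are shown so that they can be compared. The sequences are the 250 bases before the RefSeq start on GRCm38.p6, at chr16:23146286-23146535 on the plus strand for Adipoq, at chr6:29059971-29060220 on the plus strand for Lep, and at chr10:79890603-79890852 on the plus strand for Cfd. Capitals mark a CCAAT box (CCAAT, or ATTGG on the other strand) or a C/EBP core (TTGCNNAA, on either strand).
Adipoq: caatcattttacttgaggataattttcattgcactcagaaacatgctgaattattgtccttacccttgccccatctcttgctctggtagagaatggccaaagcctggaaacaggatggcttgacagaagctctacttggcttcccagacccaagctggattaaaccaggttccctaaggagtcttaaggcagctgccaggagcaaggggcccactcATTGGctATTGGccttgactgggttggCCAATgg
Lep: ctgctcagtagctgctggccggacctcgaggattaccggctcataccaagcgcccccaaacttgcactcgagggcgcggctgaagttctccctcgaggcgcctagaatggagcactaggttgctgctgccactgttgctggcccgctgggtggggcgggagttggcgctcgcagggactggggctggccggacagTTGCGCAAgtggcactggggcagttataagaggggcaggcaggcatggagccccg
Cfd: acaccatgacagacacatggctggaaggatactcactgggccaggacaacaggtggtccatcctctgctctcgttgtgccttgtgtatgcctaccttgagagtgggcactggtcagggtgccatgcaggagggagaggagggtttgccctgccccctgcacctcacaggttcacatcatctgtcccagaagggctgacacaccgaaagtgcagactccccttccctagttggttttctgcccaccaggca
Adipoq held 3 CCAAT boxes between 34 and 3 bases before its start. Lep held 1 C/EBP core, at 55 to 48 bases before the start, that reads as TTGCNNAA on both strands. The Cfd window held no match to either motif. Of the 9 genes with a window in the RefSeq table, 4 (Lep, Plin1, Cidec and Pparg) held a C/EBP core, 3 (Adipoq, Plin4 and Pparg) a CCAAT box and 1 (Pparg) the nuclear receptor half-site AGGTCA, with no overlap between motifs. Among 32851 mouse windows of 250 bases, 9.56% held the C/EBP core, 33.8% the CCAAT box and 14% the half-site. Cidec, Lipe and Pparg had more than 1 window each, so more of their sequence was searched, and Fabp4 was not searched.

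Levels of different genes were compared per length as RPKM, which is CPM per kilobase of annotated exon, separately in each group. The annotated exons of Fabp4 together cover its whole gene, 4489 bases, so its RPKM would be higher over a shorter transcript. Its place in the orders below depends on that length. In CPM, without length, Fabp4 was the highest of the genes in both groups, at 55.4 (KO) and 75.6 (WT). In KO tumours, Cfd led at 35.1 ± 26.7 RPKM (SD, n = 6), before Fabp4 at 12.3 and Pparg at 10.3 RPKM. Lipe at 4.75, Cidec at 4.48 and Adipoq at 3.57 RPKM followed, and Retn at 1.25, Plin4 at 1.00, Plin1 at 0.675 and Lep at 0.0517 RPKM were lowest. In WT tumours, Pparg led at 17.1 ± 2.40 RPKM (SD, n = 5), before Fabp4 at 16.8, Cfd at 8.40, Cidec at 7.23 and Lipe at 3.29 RPKM. The WT mean of Cfd came mostly from tumour B, and its WT median was 0.224 RPKM. In 5 of the 11 tumours, KO tumour F and WT tumours A, C, D and E, Cfd was at 1.75 RPKM or less and below both Fabp4 and Pparg. At these lengths Fabp4 and Pparg were neighbours in both orders. They differed by less than their own spread over all tumours, in which the highest level was 6.80-fold and 4.63-fold the lowest. For other genes, the highest tumour exceeded the lowest 188-fold in Plin1 and 138-fold in Adipoq, but 1.96-fold in Lipe.

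Totals per library ran from 16294128 to 31121422 counts, at which 3 counts, taken as the smallest visible level, amount to 0.0964 to 0.184 CPM; such limits cover counting error only. The ribosomal RNA share here is the share of counts in 3 genes, Gm42418 and the mitochondrial mt-Rnr1 and mt-Rnr2, of which Gm42418 was the most abundant. It was 0.308% to 0.739% among KO and 0.241% to 6.39% among WT tumours. It passed 1% in 3 WT tumours, A at 1.31%, B at 6.39% and C at 1.40%. Pkn2 itself averaged 96.5 CPM in KO and 96.5 CPM in WT libraries, with a 95% interval of the log2 difference from -0.46 to 0.45 (edgeR adjusted p = 0.996), and since the carcinoma cells carry the gene, it does not check the labels.

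**Figure D1:**
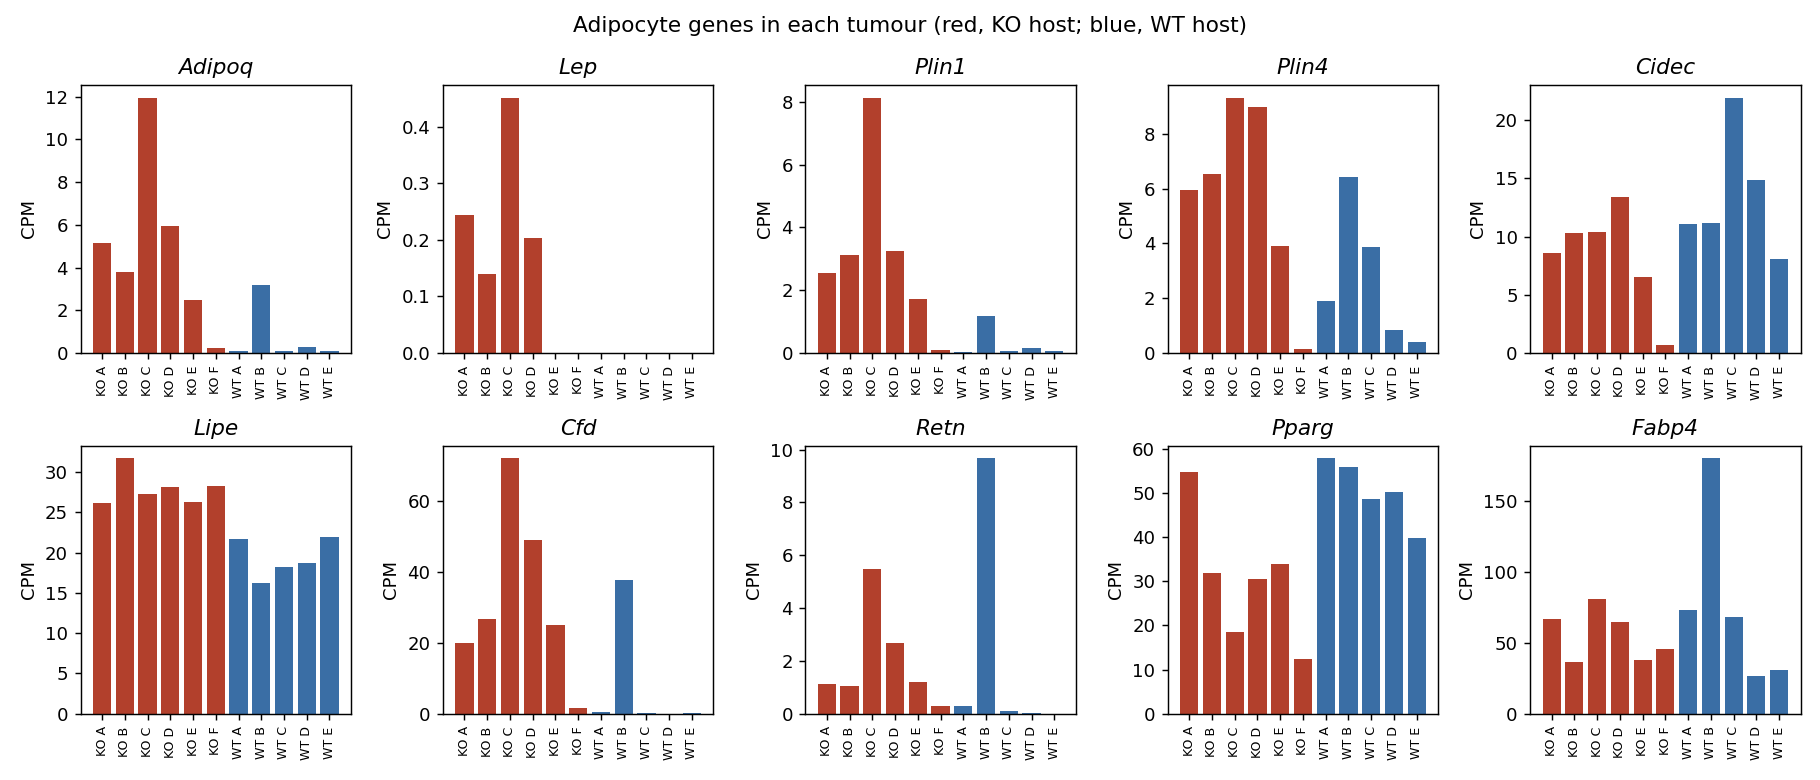
CPM of each adipocyte gene in each tumour, with 1 panel per gene, 1 bar per tumour, and linear axes that start at 0 (red, KO; blue, WT). Adipoq, Plin1, Cfd and Retn are near 0 in WT tumours other than B, and Lipe is the 1 gene whose KO bars all exceed its WT bars.

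Of the hormones and secreted proteins, Adipoq, Cfd and Retn had their lowest KO level in tumour F and their highest WT level in tumour B, and Lep was detected in 4 KO tumours alone, at 13 counts or fewer. Adipoq (ENSMUSG00000022878, chromosome 16, 23146536 to 23158028, plus strand, GRCm38) encodes adiponectin, a hormone made mainly by mature fat cells. Its level was 5.14, 3.79, 11.95, 5.97, 2.47 and 0.242 CPM in KO tumours A to F. In WT tumours A to E it was 0.0867, 3.17, 0.0982, 0.274 and 0.0883 CPM. WT tumour B thus lay among the KO tumours, KO tumour F lay below WT tumour D, and the groups overlapped. As raw counts, Adipoq had 6 to 344 per KO tumour and 2 to 38 per WT tumour, so that 3 WT tumours were at or below 3 counts. The mean was 4.93 ± 3.99 CPM (SD, n = 6) in KO and 0.743 ± 1.36 CPM (SD, n = 5) in WT tumours. The log2 difference, KO against WT, was 2.89 (SE 1.07, 95% interval 0.59 to 5.20) and missed the threshold in the quasi-likelihood test of edgeR (adjusted p = 0.135). Standard errors and intervals of log2 differences are approximate throughout, most of all at low counts.

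Cfd (chromosome 10, 79890853 to 79892655, plus strand) encodes adipsin, the serine protease factor D of the alternative complement pathway. Its level was 19.9, 26.7, 72.0, 49.0, 25.1 and 1.61 CPM in KO tumours A to F. WT tumours A to E had 0.607, 37.75, 0.147, 0 and 0.206 CPM. Each KO tumour was therefore above 4 of the 5 WT tumours, and WT tumour B was above 4 of the 6 KO tumours. The log2 difference was 2.11 (SE 1.39, interval -0.88 to 5.11; edgeR adjusted p = 0.362).

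Retn (chromosome 8, 3655770 to 3660110, plus strand) encodes resistin, a hormone that mouse fat cells secrete. KO tumours A to F had 1.12, 1.05, 5.49, 2.68, 1.22 and 0.282 CPM. WT tumours A to E had 0.303, 9.67, 0.0982, 0.0391 and 0 CPM. The highest value of all was in WT tumour B, and the log2 difference was 0.04 (SE 1.25, interval -2.65 to 2.73; edgeR adjusted p = 0.986).

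Lep (chromosome 6, 29060220 to 29073877, plus strand) encodes leptin, the hormone by which fat stores signal to the brain. It had 7, 4, 13, 5, 0 and 0 counts in KO tumours A to F and 0 counts in each WT tumour. It was too low for the filter of the test, a level of 0.416 CPM in at least 5 tumours, and received no p-value. Pooled over the KO tumours and relative to unscaled library totals, 29 counts gave 0.19 CPM (95% Poisson interval 0.127 to 0.273). A floor of 3 counts over the whole WT group would be 0.0255 CPM, and the low end of the KO interval was 5.00-fold higher than it, in counting error alone. All 4 tumours with leptin counts were KO tumours, and in them Lep stood at 0.0340 to 0.0476 of the Adipoq count. WT tumour B, the library with the fewest counts, had no Lep at 38 counts of Adipoq. KO tumour E likewise had none at 61. At those proportions so few Adipoq counts go with hardly any Lep counts, so the absence in WT tumour B says little.

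The droplet coat and droplet fusion genes did not share 1 pattern. Plin1 (chromosome 7, 79720218 to 79732903, minus strand) encodes perilipin 1, which covers the droplet of mature fat cells and gates access of lipases. KO tumours A to F had 2.55, 3.12, 8.13, 3.25, 1.70 and 0.0805 CPM. WT tumours A to E had 0.0433, 1.17, 0.0491, 0.157 and 0.0589 CPM. The KO tumours other than F were above every WT tumour, and KO tumour F, at 2 counts, was below WT tumours B and D. The log2 difference of 3.66 (SE 1.04, interval 1.42 to 5.91) was the greatest of the 9 tested genes and missed the threshold in edgeR (adjusted p = 0.0946). It passed in DESeq2 (adjusted p = 0.0193).

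Plin4 (chromosome 17, 56100591 to 56109803, minus strand) encodes a perilipin of small, newly formed droplets. KO tumours A to F had 5.95, 6.53, 9.31, 8.97, 3.89 and 0.161 CPM. WT tumours A to E had 1.91, 6.42, 3.88, 0.822 and 0.383 CPM. The lowest of all 11 tumours was KO tumour F, and the log2 difference was 1.14 (SE 0.79, interval -0.57 to 2.86; edgeR adjusted p = 0.389). Plin4 overlaps Hdgfl2 on the other strand; the library kit keeps strand, and the strand setting of the counting is not given in the sources used here.

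Cidec (chromosome 6, 113424634 to 113435760, minus strand) encodes the protein that fuses droplets into 1 large droplet. Its level was 8.57, 10.3, 10.4, 13.4, 6.49 and 0.725 CPM in KO tumours A to F. In WT tumours A to E it was 11.1, 11.2, 21.9, 14.8 and 8.10 CPM. Unlike Adipoq and Plin1, Cidec was present at 8.10 CPM or more in every WT tumour, and the groups overlapped. Its log2 difference of -0.69 (SE 0.50, interval -1.76 to 0.39) missed the threshold in edgeR (adjusted p = 0.407).

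Lipe (chromosome 7, 25379527 to 25398710, minus strand) encodes hormone-sensitive lipase, which splits diglycerides during fat mobilisation and is also made in steroid-producing and other cells. KO tumours A to F had 26.2, 31.7, 27.2, 28.1, 26.3 and 28.2 CPM. WT tumours A to E had 21.7, 16.2, 18.2, 18.7 and 22.0 CPM. The groups did not overlap, and KO tumour F, lowest in Adipoq among KO tumours, was among the highest in Lipe. Lipe averaged 28.0 ± 2.02 CPM (SD, n = 6) in KO and 19.3 ± 2.47 CPM (SD, n = 5) in WT tumours, a log2 difference of 0.53 (SE 0.14, interval 0.23 to 0.83). This missed the threshold in edgeR (adjusted p = 0.0908) and passed in DESeq2 (adjusted p = 0.00626). It also passed in edgeR without WT tumour E (adjusted p = 0.0353), at a log2 difference of 0.58. That fit called 608 of 16731 genes higher and 1248 lower, against 3 and 0 with all 11 tumours. Lipe overlaps 4732471J01Rik on the other strand.

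Pparg and Fabp4 are the regulator and one of its targets. Pparg (chromosome 6, 115360951 to 115490399, plus strand) encodes the nuclear receptor that drives fat cell differentiation and also acts in macrophages and epithelia. Its level was 54.6, 31.9, 18.5, 30.6, 33.8 and 12.5 CPM in KO tumours A to F. In WT tumours A to E it was 57.8, 55.8, 48.7, 50.2 and 39.75 CPM. KO tumour A lay within the WT range and the other 5 KO tumours lay below it. KO tumour C, highest in Adipoq, was next to lowest in Pparg. The mean was 30.3 ± 14.6 CPM (SD, n = 6) in KO and 50.5 ± 7.07 CPM (SD, n = 5) in WT tumours. The log2 difference was -0.74 (SE 0.30, interval -1.38 to -0.09) and missed the threshold in edgeR (adjusted p = 0.163). Pparg overlaps Gm44079 on the other strand.

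Fabp4 (chromosome 3, 10204088 to 10208576, minus strand) encodes a fatty acid carrier of fat cells, capillary endothelium and macrophages. KO tumours A to F had 66.6, 36.6, 80.9, 64.9, 38.0 and 45.3 CPM. WT tumours A to E had 72.9, 180, 67.8, 26.5 and 30.8 CPM. WT tumour B was the highest of all 11 tumours, and both the highest and the lowest 2 values were in WT tumours. The log2 difference was -0.45 (SE 0.43, interval -1.38 to 0.48; edgeR adjusted p = 0.540).

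**Figure D2:**
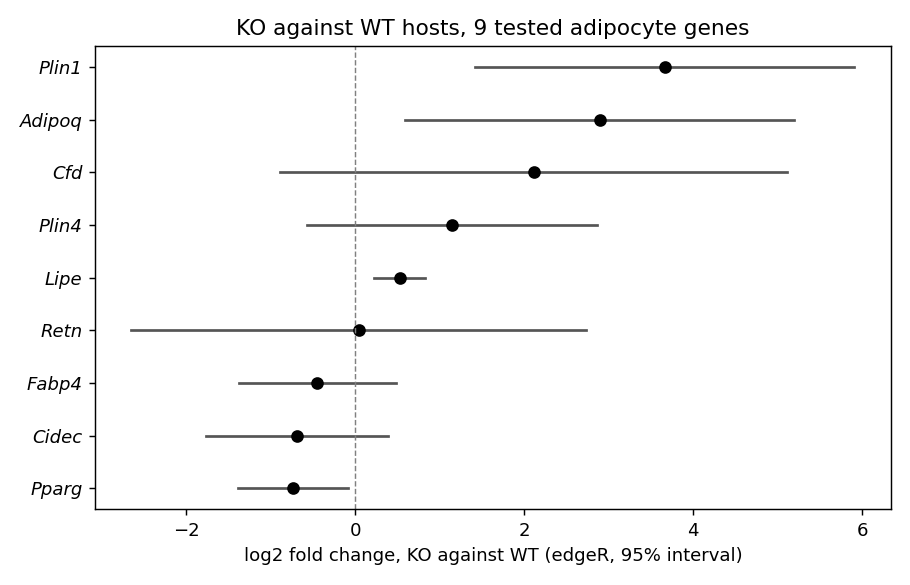
Log2 fold change of the 9 tested adipocyte genes, KO against WT, from edgeR (points) with approximate 95% intervals (lines) and a dashed line at 0. Intervals of Plin1, Adipoq and Lipe lie above 0 and that of Pparg below 0, before adjustment over all tested genes.

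Counted over the 9 tested genes, edgeR called 0 in either direction at an adjusted p under 0.05, against 3 genes called higher (0.0181%) and 0 called lower (0%) of all 16536 tested. At an unadjusted p under 0.05, 3 were higher (Adipoq, Plin1 and Lipe) and 1 lower (Pparg), where 8.57% of all tested genes were higher and 15.5% lower. DESeq2 called 2 higher (Lipe and Plin1) and 0 lower after adjustment, where it called 3.21% of 18538 genes higher and 4.85% lower. At an unadjusted p under 0.05, DESeq2 had 4 higher and 1 lower of the 10 with Lep included, where 6.27% of 29531 genes were higher and 10.3% lower. The CPM ranges of the groups did not overlap in 1 gene (Lipe, higher in KO), where this held for 1.59% of tested genes in the higher and 1.98% in the lower direction. The median log2 difference of the 9 was 0.53, and that of all tested genes was -0.03. Adipoq, Plin1 and Retn passed the filter through 5 KO tumours and 1 WT tumour each. Cfd passed it through 6 KO and 2 WT tumours, where 5 tumours were needed. The place of these genes among the tested genes thus depended on the tumours in which they were high.

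The fold changes depended on WT tumour B, which had the highest ribosomal RNA share and the fewest counts. Without it, Adipoq had a log2 difference of 5.12 (edgeR adjusted p = 0.0986), Plin1 of 5.26 (adjusted p = 0.0986), Cfd of 7.07 (adjusted p = 0.0772) and Retn of 4.20 (adjusted p = 0.123). Lipe was at 0.47 and Pparg at -0.70 in that fit, and Fabp4 turned from -0.45 to 0.16. These differences rest on few WT counts, since the other 4 WT tumours had 2 to 7 counts of Adipoq, 1 to 4 of Plin1, 0 to 14 of Cfd and 0 to 7 of Retn. The unadjusted count without WT tumour B was 5 higher and 0 lower, where 6.72% of all genes in that fit were higher and 9.59% lower, and edgeR called 0 of the 9 at the adjusted threshold. When the ribosomal share entered the fit as a covariate, Adipoq was at 5.61 and Cfd at 8.10, 7 of the 9 were higher and 0 lower at an unadjusted p under 0.05, where 4.37% of all genes in that fit were higher and 4.52% lower. The smallest adjusted p in that edgeR fit was 0.0576, for Retn at 6.58. Leaving out WT tumours A, B and C, the libraries with a ribosomal share over 1%, likewise gave 7 higher and 0 lower at an unadjusted p under 0.05, where 8.21% of all genes were higher and 9.01% lower, and 0 calls, on 2 WT tumours; this alternative was chosen after seeing the data. The share was 6.39% in WT tumour B and at most 1.40% in the others. The covariate therefore did not set the share apart from other traits of that tumour, and it did not hold depth. The part of ribosomal RNA or depth in the levels of WT tumour B was not tested otherwise.

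**Figure D3:**
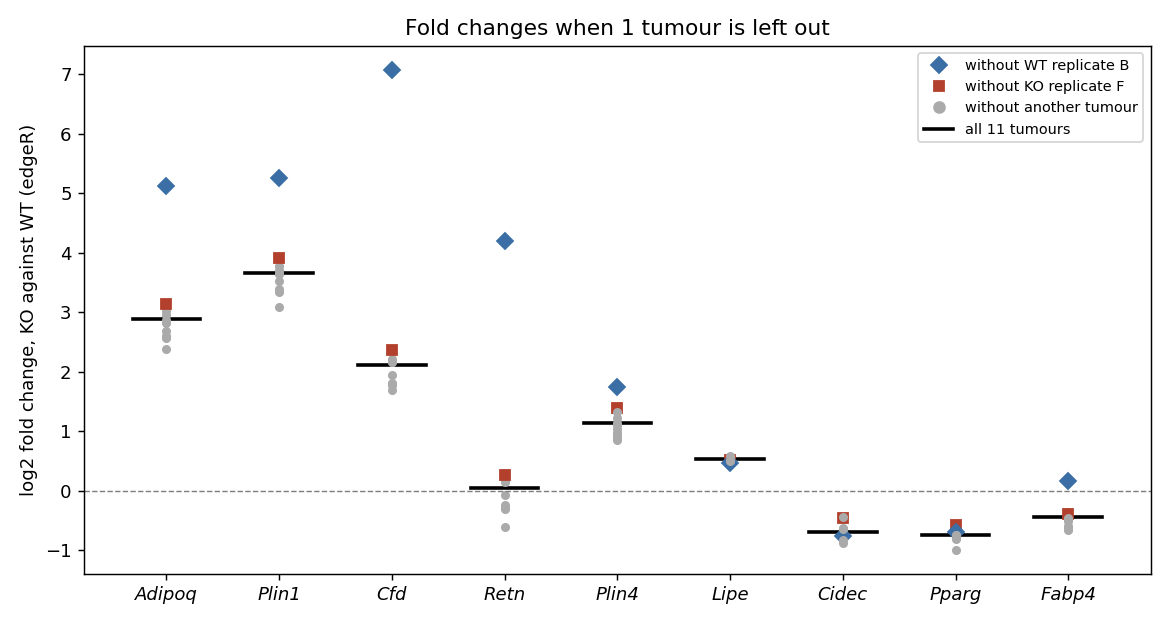
Log2 fold change of each tested adipocyte gene in edgeR with all 11 tumours (black bar) and with 1 tumour left out (grey circles, red squares without KO tumour F, blue diamonds without WT tumour B). Leaving out WT tumour B raises Adipoq from 2.89 to 5.12, Cfd from 2.11 to 7.07 and Retn from 0.04 to 4.20, and moves Lipe and Pparg little.

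Across the 11 tumours the genes varied with Adipoq to unequal degrees, as Pearson correlations of log2(CPM + 1) between tumours that share group, depth and scaling. Plin1 (r = 0.98) and Cfd (r = 0.96) were closest to Adipoq. Lep (r = 0.85), Plin4 (r = 0.85) and Retn (r = 0.79) followed. Lipe (r = 0.47), Fabp4 (r = 0.38), Cidec (r = 0.13) and Pparg (r = -0.22) were least like it. In the 6 tumours with over 2 CPM of Adipoq, the proportions of the fat cell genes were compared directly. Plin1 stood at 0.497 to 0.824 of the Adipoq level in KO tumours A to E and at 0.368 in WT tumour B. Cfd stood at 3.86 to 10.2 times Adipoq in the 5 KO tumours and at 11.9 times in WT tumour B. Retn stood at 0.218 to 0.492 of Adipoq in the KO tumours and at 3.05 times in WT tumour B, and Fabp4 at 6.77 to 15.4 times against 56.8 times. Plin4, Cidec and Pparg were also higher in WT tumour B, at 2.03, 3.53 and 17.6 times Adipoq, against at most 1.72, 2.72 and 13.7 times. Lipe, at 5.105 times, lay within the KO range of 2.28 to 10.6 times. WT tumour B therefore carried less adiponectin message relative to most of the other genes, not to Retn and Fabp4 alone, than each of the 5 KO tumours. This did not hold for Plin1, Lipe or Lep. It is a comparison with 1 tumour that has no test.

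Other genes of mature fat cells gave mixed values. Their counts stand beside 8.57% higher and 15.5% lower of all tested genes at an unadjusted p under 0.05 in edgeR. For DESeq2 calls, these shares were 3.21% and 4.85%. Of 12 further markers, 5 were high enough to be tested, edgeR called 0, 2 were higher and 0 lower at an unadjusted p under 0.05, DESeq2 called 1 higher (Trarg1), and the median log2 difference was 1.04. Trarg1, which helps the insulin-driven glucose transporter traffic in fat cells, was at 1.37 to 4.07 CPM across KO and 0.736 to 2.33 CPM across WT tumours, a log2 difference of 1.04 (edgeR adjusted p = 0.137, DESeq2 adjusted p = 0.0487). Ghr, the growth hormone receptor, was the most abundant, with 60.7 CPM (KO) and 85.9 CPM (WT) on average, and made up most of the summed level of the list, 39.1 to 117 CPM across KO and 43.1 to 212 CPM across WT tumours. The other 3 tested, named after their values were seen, did not share a direction. Car3, a carbonic anhydrase abundant in fat, had a log2 difference of 2.76 (edgeR adjusted p = 0.187), Pck1, an enzyme of glycerol and glucose synthesis, of 2.57 (adjusted p = 0.241) and Sucnr1, the succinate receptor, of -1.77 (adjusted p = 0.263). Of 9 brown fat genes, 5 were tested, edgeR called 0, 0 were higher and 1 lower at an unadjusted p under 0.05, and DESeq2 called 1 lower. That gene was Cox7a1, a subunit of the respiratory chain (log2 difference -1.88, edgeR adjusted p = 0.119). Ucp1, the uncoupling protein that defines brown fat, had 0 counts in each of the 11 tumours.

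In the pathways around the droplet edgeR called 0 genes, where it called 3 of all 16536 tested genes. At an unadjusted p under 0.05 in edgeR, 8.57% of all tested genes were higher and 15.5% lower. DESeq2 called 3.21% of its genes higher and 4.85% lower. Of 10 tested genes of droplets and lipolysis, 0 were higher and 2 lower at an unadjusted p under 0.05 and DESeq2 called 0. Cideb, a relative of Cidec, had the smallest p in that list (log2 difference -0.91, edgeR adjusted p = 0.128), and Cavin1, a coat protein of caveolae, was the most abundant at 308 CPM (KO) and 371 CPM (WT). Of 12 genes of fatty acid uptake and triglyceride synthesis, 1 was higher and 0 lower, and DESeq2 called that 1. It was Acsl1, which activates long-chain fatty acids (log2 difference 0.95, edgeR adjusted p = 0.0907, DESeq2 adjusted p = 0.0131). Lpl, the lipase that frees fatty acids from lipoproteins, stood at 107 CPM (KO) and 99.9 CPM (WT) (edgeR adjusted p = 0.883). Of 9 genes of new fatty acid synthesis, 2 were higher and 0 lower, and DESeq2 called 0. Scd1, the stearoyl-CoA desaturase, was 1 of them (log2 difference 0.75, edgeR adjusted p = 0.113), and Acly, which makes cytosolic acetyl-CoA, was the most abundant (log2 difference 0.38, edgeR adjusted p = 0.391).

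Regulators and receptors of fat cells were also compared, beside the same shares over all tested genes. These were 8.57% higher and 15.5% lower at an unadjusted p under 0.05 in edgeR. Of 7 further transcription factors of fat cell differentiation, 0 were higher and 0 lower at an unadjusted p under 0.05 in edgeR, and DESeq2 called 0. Cebpa, which acts with Pparg in maturing fat cells, was at 61.2 CPM (KO) and 48.3 CPM (WT) (edgeR adjusted p = 0.238). Cebpb, which acts before Cebpa, was at 97.8 CPM (KO) and 142.9 CPM (WT) (edgeR adjusted p = 0.302). Of 9 other adipokines and hormone receptors, edgeR called 0, 1 was higher and 1 lower at an unadjusted p under 0.05, and DESeq2 called 1 lower. Rbp4, the retinol carrier that liver and fat secrete, was the one called, at 160.5 CPM (KO) and 352 CPM (WT) (log2 difference -1.13, edgeR adjusted p = 0.0909, DESeq2 adjusted p = 0.0139). Of 7 tested genes of fat cell progenitors, 0 were higher and 0 lower at an unadjusted p under 0.05 in edgeR, and DESeq2 called 0; Dpp4, a progenitor surface protease, had a log2 difference of 0.61 (edgeR adjusted p = 0.303) and Ly6a, the most abundant, of 0.25 (edgeR adjusted p = 0.838).

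Among the lists of other cells, only neutrophil genes were among the 100 genes most like the mean of the adipocyte genes. That mean pools genes that did not vary alike, such as Adipoq and Pparg. KO and WT tumours entered together, so a difference between the groups can add to the likeness. By the mean z score of the 10 genes over 11 tumours, the most similar other genes were S100a8 (r = 0.97), Wfdc21 (r = 0.94), S100a9 (r = 0.94), Orm1 (r = 0.93), Ankrd22 (r = 0.93), Ifitm6 (r = 0.91), Prtn3 (r = 0.90), Ms4a3 (r = 0.90), Kcnk12 (r = 0.90) and Ly6g (r = 0.89). Several of these, such as S100a8, S100a9, Prtn3 and Ly6g, are genes of neutrophils and their precursors. The 100 most similar genes held 7 of 7 listed neutrophil genes, 3 of 12 mature fat cell markers (Car3, Trarg1 and Pck1) and 1 of 11 droplet genes (Abhd5). They also held immunoglobulin genes that were on no list, such as Igkv14-126 (r = 0.87), Igkc (r = 0.78) and Ighg1 (r = 0.75), so the likeness was not particular to neutrophil genes. The summed level of the 7 neutrophil genes was 156 to 2814 CPM across KO and 82.9 to 923 CPM across WT tumours, lowest among KO tumours in F and highest among WT tumours in B, the same tumours that were lowest among KO and highest among WT in Adipoq. All 7 had positive log2 differences (median 3.98) and an unadjusted p under 0.05, edgeR called 0 and DESeq2 called 6. Over all tested genes, 8.57% were higher at that unadjusted p in edgeR, and DESeq2 called 3.21% higher. Mpo, the granule peroxidase, had the smallest p (log2 difference 5.59, edgeR adjusted p = 0.0663), and S100a9, a calcium-binding protein of neutrophils, was the most abundant (log2 difference 2.20, edgeR adjusted p = 0.107). The part of neutrophil RNA in the adipocyte gene levels was not tested.

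**Figure D4:**
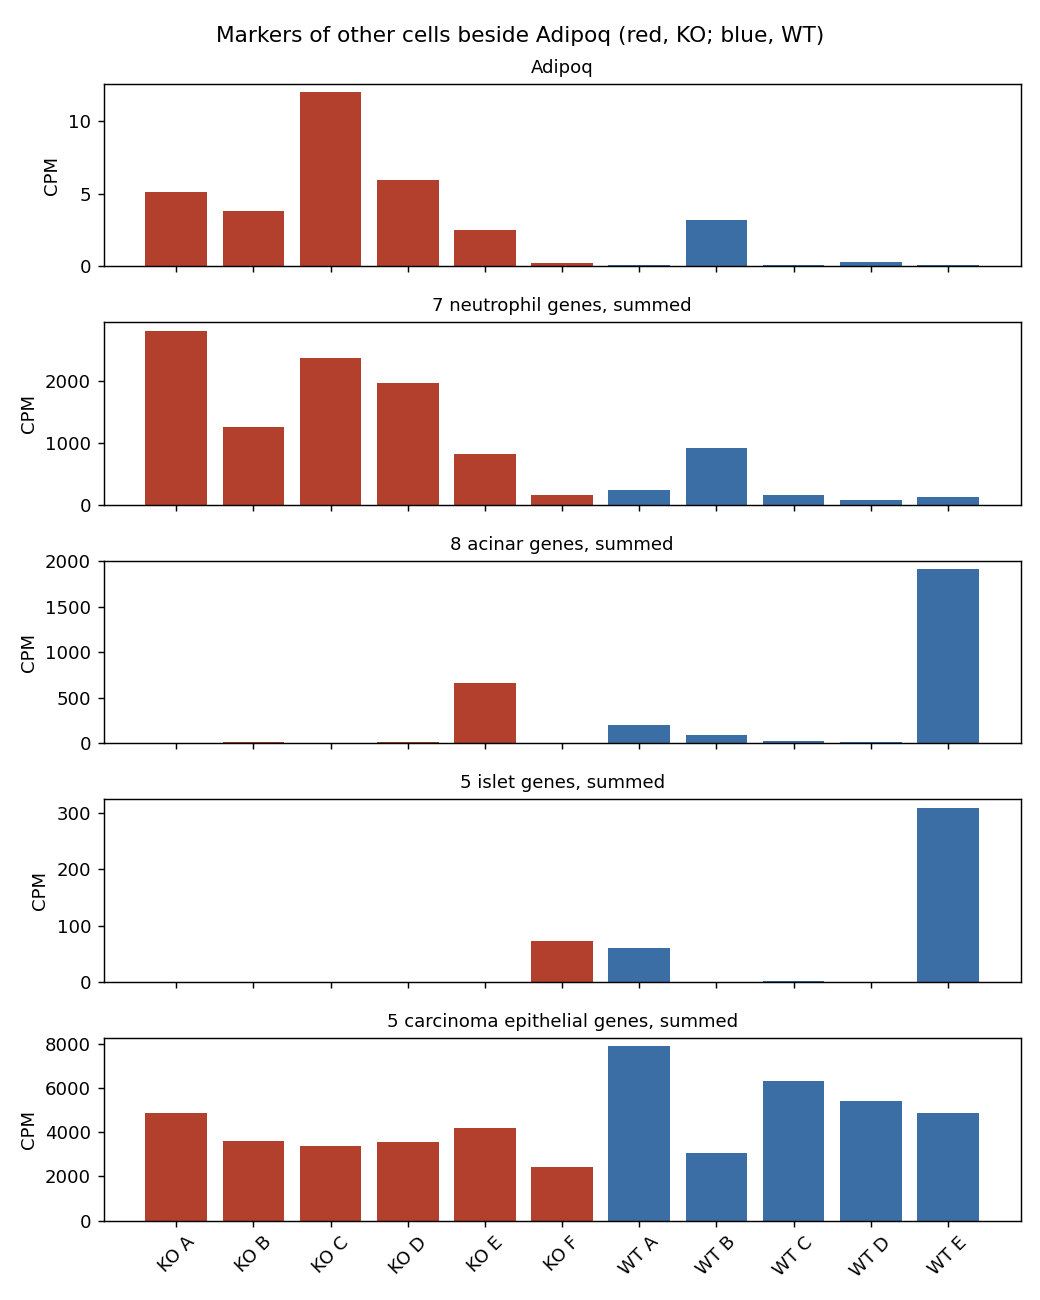
CPM per tumour of Adipoq and of the summed markers of 4 other cell types, 1 panel each with its own linear axis from 0 (red, KO; blue, WT). KO tumour F and WT tumour B are the lowest KO and the highest WT tumour in both Adipoq and the neutrophil sum, and the acinar sum is highest in WT tumour E.

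Genes of the surrounding organs and of the tumour itself did not follow Adipoq in the same way. The counts below stand beside 8.57% higher and 15.5% lower of all tested genes at an unadjusted p under 0.05 in edgeR. DESeq2 called 4.85% of its genes lower. The summed level of 8 acinar genes, digestive enzymes of the normal pancreas, was 7.49 to 669 CPM across KO and 12.95 to 1913 CPM across WT tumours, highest in WT tumour E, where Adipoq was at 0.0883 CPM. Of the 3 acinar genes tested, edgeR called 0, 0 were higher and 1 lower at an unadjusted p under 0.05, and DESeq2 called that 1, Cela1 (log2 difference -1.96, edgeR adjusted p = 0.0938); Ctrb1, the most abundant, was at -1.55 (edgeR adjusted p = 0.664). The 5 islet hormone genes summed to 0 to 73.4 CPM across KO and 0.0833 to 308 CPM across WT tumours, and none was high enough to be tested. Muscle genes summed to 0.626 to 4.27 CPM across KO and 0.470 to 174 CPM across WT tumours, the highest in WT tumour A; Acta1, muscle actin and the 1 gene tested of 5, was at -4.18 on the log2 scale (edgeR adjusted p = 0.117). Of 5 carcinoma epithelial genes, edgeR and DESeq2 called 0, and 0 were higher and 3 lower at an unadjusted p under 0.05. Krt19, a duct keratin, was at 546 CPM (KO) and 1031 CPM (WT) (edgeR adjusted p = 0.128), with its lowest level in KO tumour F at 244.9 CPM and its lowest WT level in B at 413 CPM, and Krt18 had a log2 difference of -0.54 (edgeR adjusted p = 0.205). In bulk tissue, fewer fat cells and less RNA per fat cell cannot be told apart.

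Stromal and vessel genes, some of which fat also contains, were measured in the same fit. In that fit 8.57% of all tested genes were higher and 15.5% lower at an unadjusted p under 0.05. DESeq2 called 3.21% of its genes higher and 4.85% lower. Of 8 endothelial genes, edgeR and DESeq2 called 0, and 0 were higher and 2 lower at an unadjusted p under 0.05. Gpihbp1, which holds lipoprotein lipase on capillaries, had the smallest p (log2 difference -1.15, edgeR adjusted p = 0.135), and Pecam1 was at 0.38 (edgeR adjusted p = 0.314). Of 7 macrophage genes, edgeR called 0, 2 were higher and 0 lower, and DESeq2 called 1 higher, Csf1r, the receptor for colony-stimulating factor 1 (log2 difference 0.83, edgeR adjusted p = 0.0967); Lyz2 was at -0.12 (edgeR adjusted p = 0.842). Of 5 fibroblast and 6 mesothelial genes, 0 were higher and 0 lower at an unadjusted p under 0.05 in edgeR, and DESeq2 called 0. Lum had a log2 difference of 0.51 (edgeR adjusted p = 0.372) and Col1a2 of 0.33 (edgeR adjusted p = 0.587), while Bnc1 was at 1.67 (edgeR adjusted p = 0.21) and Msln at -0.12 (edgeR adjusted p = 0.83). All 5 lymphoid follicle genes had an unadjusted p under 0.05 in the higher direction, edgeR called 0 and DESeq2 called 5, with Cd79a, part of the B cell receptor, at a log2 difference of 2.62 (edgeR adjusted p = 0.0663) and a summed level of 20.1 to 64.9 CPM across KO and 2.17 to 20.4 CPM across WT tumours. WT tumour B, high in Adipoq, Cfd and Retn, was the lowest of all 11 tumours in the follicle sum, at 2.17 CPM.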

How the data were processed

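Bulk RNA sequencing of 11 pancreatic tumours (6 KO and 5 WT hosts) was used. As the labels and the methods state, a portion of each tumour gave RNA, strand-specific libraries were sequenced in pairs on a NovaSeq, and the authors trimmed reads with Trimmomatic, aligned them with HISAT2 2.1.0 to GRCm38 and counted uniquely aligned reads over exons with HTSeq 0.11.2. The deposited tables hold raw counts per gene and normalised values, a signal equal to the raw count divided by 1 size factor per library (0.514 to 1.42). Groups were taken from the titles, and no column was unmapped. Symbols, coordinates and exon lengths came from GENCODE M21, with exon length as the union of annotated exons, and sequences before start sites from RefSeq. All pairs of libraries differed by more than sampling noise (chi-square per degree of freedom at least 36.8).

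Raw counts were tested with the quasi-likelihood test of edgeR 4.0.16 in R 4.3.3, with TMM scaling, the default expression filter and Benjamini-Hochberg adjustment over 16536 genes. The threshold was an adjusted p under 0.05. The code was tested on simulated data. The alternatives were DESeq2 1.42.0, DESeq2 size factors in edgeR, other count filters, leaving out each tumour, a replicate block, a ribosomal RNA covariate, the deposited values and a pseudocount of 0.1 in place of 1 CPM. The named genes were the 10 adipocyte genes, from each other list the gene with the smallest edgeR p and the most abundant one, and the 10 genes most like the mean z score of log2(CPM + 1). The 10 genes and all lists were chosen with earlier results of these data known.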

Additional observations from a re-analysis of the deposited data

Results flagged for a closer look

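In 20 groups (each of the 10 genes in KO and in WT tumours), 6 values were set well apart from the others of the group on the log2(CPM + 1) scale by Dixon's gap, where about 1 is expected by chance. Lep, at 0 counts in each WT tumour, could hold no such value in its WT group. The groups are not independent, since the genes were measured in the same tumours. WT tumour B was far above the other WT tumours in 4 genes. Its level was 3.167 CPM for Adipoq, 1.167 CPM for Plin1, 37.75 CPM for Cfd and 9.666 CPM for Retn, and its gap was 0.859 to 0.888 of the group's range against a critical value of 0.71. With a pseudocount of 0.1 CPM, the gap was 0.671 for Cfd and 0.696 for Retn, below the critical value. The same library had the highest ribosomal RNA share, 6.39%, and the fewest counts. The covariate held the ribosomal share alone and did not set it apart from other traits of this tumour. The part of depth in these levels was not tested.

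KO tumour F was far below the other KO tumours in Plin4, at 0.161 CPM (gap 0.659, critical value 0.625), and in Cidec, at 0.7245 CPM (gap 0.691). In the same tumour Lipe was at 28.2 CPM, within the range of the other KO tumours, and Fabp4 was at 45.3 CPM.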

How the results depend on the processing

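The directions of Adipoq, Plin1, Plin4, Cidec, Lipe, Cfd and Pparg were the same under each alternative that gave a value. The count of adipocyte genes called higher was 2 in DESeq2, against 0 in edgeR, and 0 to 1 when 1 tumour was left out (Lipe, without WT tumour E). In the fit without WT tumour E, 608 of all tested genes were called higher. Over all tested genes, the counts higher and lower were 595 and 900 in DESeq2, 39 and 6 without a filter, 0 and 0 with at least 10 counts in every tumour, and 0 to 608 and 0 to 1248 when 1 tumour was left out. The calls lower numbered 3 without WT tumours A, B and C. The covariate gave 0 higher. The median log2 difference of the adipocyte genes was -0.56 with at least 10 counts in every tumour, where only 4 of them (Cidec, Lipe, Pparg and Fabp4) were kept, 2.84 with the covariate, 3.28 without WT tumours A, B and C, and 0.49 to 1.74 when 1 tumour was left out, the highest without WT tumour B. Fabp4 ran from -0.66 to 0.16 when 1 tumour was left out and turned to 0.63 with the covariate, 0.96 without WT tumours A, B and C and 0.1647 without WT tumour B. Retn ran from -0.61 to 4.20 when 1 tumour was left out and turned negative without KO tumour C (-0.61) or D (-0.07) or WT tumour A (-0.25), C (-0.27), D (-0.28) or E (-0.30). Its log2 ratio of group means was -0.0346 in CPM and 0.0201 in the deposited values. The cause was not tested for these.

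With a replicate block over the letters A to E, which leaves out KO tumour F, 7 genes were called higher and 1 lower, against 30 and 2 on the same 10 tumours without the block. In the blocked fit the median of the adipocyte genes was 1.90, 1 neutrophil gene was called, and 0 adipocyte genes were. Tumours with the same letter did not deviate together (correlations -0.13 to 0.11), so that they share only a letter, and 1 of 5 KO tumours correlated best with the WT tumour of its letter.

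In the other lists edgeR called 0 genes. DESeq2 called 1 each for mature fat cell, uptake, adipokine, brown fat, acinar and macrophage genes, 5 for follicle and 6 for neutrophil genes. Without a filter, 1 follicle and 2 neutrophil genes were called. When 1 tumour was left out, the calls were 0 to 1 for uptake, lipogenesis, adipokine, brown fat, acinar, macrophage and mesothelial genes, 0 to 2 for endothelial, 0 to 3 for neutrophil and 0 to 5 for follicle genes. Leptin, at most 13 counts per tumour, and Adipoq, Plin1 and Retn in 3 WT tumours each and Cfd in 2, at 3 or fewer counts, were limited by depth. The same held for Plin1 in KO tumour F, at 2 counts.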
